A study of Homo sapiens and Mus musculus with 16 samples.

Results

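AP-1 is a transcription factor made of paired proteins of the FOS, JUN and ATF families, and its 8 genes FOS, FOSB, FOSL1, FOSL2, JUN, JUNB, JUND and ATF3 were followed in the mRNA of SK-HEP-1 cells given an extract of the mushroom Antrodia cinnamomea. The genes were taken by name from the authors' expression table, which held all 8 among its 22314 genes. SK-HEP-1 is a human cell line from a liver cancer. Cells received DMSO (untreated, U) or a 500 µg/ml ethanol extract of the fruiting bodies (AcFBE; treated, T), for 2 or 4 h. The extract stock was mixed into fresh medium that replaced the old, and whether the DMSO cells had such a change is not given in the sources used here. Poly(A) RNA was sequenced on a SOLiD 3 instrument, which gave 4 libraries named 2U, 2T, 4U and 4T. The series holds 16 samples, of which the other 12 measured small RNA and were not used here. Each condition had 1 mRNA library of a single cell line, so no difference has a replicate check, an error or a p-value, and every fold below compares those libraries. Values are the authors' FPKM (fragments counted on a gene, divided by the length of its transcript and the size of the library). This scale is meant to let genes be set side by side, but effects of a gene's base composition may remain in it. Where 4 values follow one another without names, their order is 2U, 2T, 4U, 4T. The number of reads behind an FPKM, and with it the counting error, is unknown. They also cannot tell less RNA of a gene per cell from fewer cells that express it.

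As background, FOS proteins (FOS, FOSB, FOSL1, FOSL2) do not pair with themselves and bind DNA with a JUN protein, while JUN proteins (JUN, JUNB, JUND) can also pair with each other, and ATF3 pairs with JUN proteins or with itself. FOS, FOSB, JUN, JUNB and ATF3 are immediate early or stress-induced genes, which serum, growth factors, fresh medium and stress switch on through MAP kinases, SRF, CREB and ATF2, and their mRNAs are short-lived. JUND is known for steadier expression, and FOSL1 for high levels in many invasive carcinoma lines.

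The promoters of the members carry the short letters through which several of these factors act, and 4 of them are shown here because FOS, FOSB, JUN and JUND had the lowest treated-to-untreated ratios at 2 h or a listing at 0. Each is the 140 bases before the RefSeq start of the gene, 5′ to 3′ on the gene's strand, in build GRCh38.p14, and capitals mark TGACG on either strand (CGTCA on the other), which is the core of the CREB and ATF site, the TATA box letters TATAAA, and TGACATCA, a JUN and ATF2 site.
FOS, chr14:75278688-75278827 (+ strand): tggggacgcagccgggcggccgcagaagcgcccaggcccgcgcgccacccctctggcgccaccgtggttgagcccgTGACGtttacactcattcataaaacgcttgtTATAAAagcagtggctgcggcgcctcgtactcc
FOSB, chr19:45467856-45467995 (+ strand): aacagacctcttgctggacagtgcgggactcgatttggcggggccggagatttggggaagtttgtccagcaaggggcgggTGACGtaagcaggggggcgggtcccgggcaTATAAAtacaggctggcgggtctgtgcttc
JUN, chr1:58784048-58784187 (- strand): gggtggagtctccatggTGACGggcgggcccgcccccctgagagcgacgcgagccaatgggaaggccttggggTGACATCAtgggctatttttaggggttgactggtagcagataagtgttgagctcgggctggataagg
JUND, chr19:18281623-18281762 (- strand): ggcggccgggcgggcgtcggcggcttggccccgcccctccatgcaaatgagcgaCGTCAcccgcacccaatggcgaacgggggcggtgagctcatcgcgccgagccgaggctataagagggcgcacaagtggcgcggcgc
In the 250 bases before the start, TGACG was present in 6 of the 7 members that the RefSeq promoter table holds (FOS, FOSB, FOSL2, JUN, JUNB and JUND), beside 21.2% of 35116 promoters over the same 250 bases and 29.7% of the promoters of genes with at least 1 FPKM in any library. It began at base -64 in FOS, -60 in FOSB, -66 in FOSL2, -123 in JUN, -137 in JUNB and -200 in JUND, outside the bases printed, and JUND held it on the other strand at -86. FOS, FOSB and JUNB had TATAAA within 33 bases of the start, and ATF3 held it at -230 of 1 of its 2 start sites, which together make 4 of 7 members against 10.7% of all promoters. TGACATCA stood in JUN and ATF3 (2.37% of all promoters) and TGACGTCA, which contains TGACG, in JUND (1.65%). TGACTCA, the classical AP-1 site (4.2%), and the serum response CArG box (1.16%) were matched in none of these windows, which says only that the letters are not in them. FOSL1 has no entry in the table. A match is a description of letters and no measure of binding.

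The libraries differed in ways that touch low values. Between 8454 (2T) and 10691 (2U) genes had an FPKM above 0, and the lowest value above 0 was 0.0001 in both 2 h libraries but 0.2 in both 4 h libraries. A listing at 0 can be a failed estimate. In 2T, 32 genes stood at 0 that had at least 10 FPKM in each of the other 3 libraries, among them the ribosomal protein gene RPL17 and the translation factor gene EEF1D (both named after their values were seen), and 43 genes stood at 0 in both 2 h libraries with at least 10 FPKM in both 4 h libraries. Of 6 hepatocyte markers, 4 were listed at 0 in every library (ALB, APOA1, TTR and TF), as were all 5 endothelial markers and 3 of 4 leukocyte markers, while SERPINA1 had 8.59 to 18.7, CD68 8.80 to 13.9 and, of 5 mesenchymal markers, VIM 6465 to 13625, THY1 25.5 to 55.6 and FN1 4.92 to 14.5 FPKM, with COL1A2 at 0 in every library and COL1A1 at 0 in all but 4T (0.271).

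AP-1 mRNA was lower in the treated library at both times. At 2 h, 6 of the 7 members with a value above 0 in both libraries were at least 2-fold lower in 2T than in 2U, beside 18.4% of all 8448 genes so compared, and 0 of 7 were at least 2-fold higher, beside 23.4%. At 4 h, 7 of 8 were at least 2-fold lower in 4T than in 4U, beside 20.9% of 8651 genes, and 0 of 8 were at least 2-fold higher, beside 12.6%. All 7 and all 8 were lower by some amount, beside 48.2% of all genes at 2 h and 59.2% at 4 h. With each library divided by the upper quartile of its values, the shares of all genes lower and higher became 39.5 and 10.7% at 2 h and 11.7 and 20.2% at 4 h, and with median-ratio scaling 12.6 and 19.1% at 4 h, while the members at least 2-fold lower were 7 of 7 at 2 h with upper-quartile scaling, 6 of 7 with median-ratio scaling, and 7 of 8 at 4 h with both. The median log2 ratio of the members was -2.00 at 2 h and -1.93 at 4 h, against 0.07 and -0.18 over all genes. Relative to the median of all genes, which no scaling moves, the members' median was -2.07 at 2 h and -1.75 at 4 h. Both treated libraries lay below both untreated libraries for 7 of 8 members, beside 32% of the 6424 genes with at least 1 FPKM in any library, and for 0 of 8 they lay above both, beside 22.7%. At least 2-fold lower at both times were 5 of 7 members (FOS, FOSL1, FOSL2, JUN and JUND), beside 8.01% of 7678 genes, none was at least 2-fold higher at both, beside 6.56%, and FOS and JUN were at least 4-fold lower at both, beside 0.873%.

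**Figure D1:**
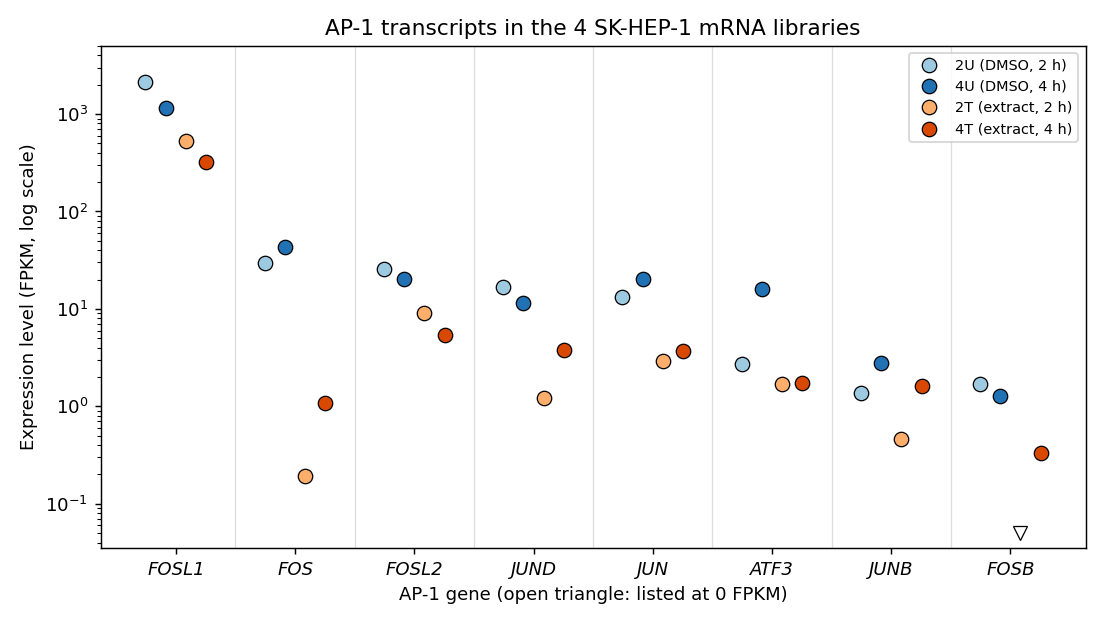
FPKM (log axis) of each AP-1 gene in the libraries 2U, 2T, 4U and 4T, 1 point per library. FOSL1 stands far above the other genes at 324 to 2134 FPKM, and the treated points lie below the untreated ones of all genes but JUNB, where 4T (1.62) is above 2U (1.37).

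The FOS family showed both the highest level and the largest ratio. FOS, the founding partner of JUN in AP-1, had 29.4 FPKM in 2U and 43.3 in 4U, against 0.193 in 2T and 1.09 in 4T. Its untreated libraries were both high and its treated libraries both low, with no overlap. The ratio was 152-fold lower at 2 h (log2 -7.25) and 39.7-fold lower at 4 h (log2 -5.31), and the 2T value lies under 0.2, a range above 0 that held 1173 genes of 2T and no gene of the 4 h libraries. With 1 FPKM added to every value the log2 ratios were -4.67 and -4.40.

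FOSB, a close relative of FOS, had 1.71 FPKM in 2U and 1.29 in 4U, against 0 in 2T and 0.329 in 4T. It was low throughout and lowest with AcFBE, and no fold is given at 2 h because 2T is listed at 0. At 4 h it was 3.92-fold lower (log2 -1.97), a ratio that became -0.78 with 1 FPKM added. FOSB lies inside the span of ERCC1, a DNA repair gene on the opposite strand, which was listed at 0 in 2U and 2T and had 188 FPKM in 4U and 104 in 4T. Only the spans of the genes were compared here, not their exons. Whether the authors' counting used the strand is not given in the sources used here, so whether reads of ERCC1 were counted for FOSB is unknown.

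FOSL1 (Fra-1) was the most abundant AP-1 mRNA in every library, with 2134 FPKM in 2U and 1149 in 4U, against 532 in 2T and 324 in 4T. It ranked 81st of all genes in 2U and 284th in 4T. Treated and untreated values did not overlap, and the ratio was 4.01-fold lower at 2 h (log2 -2.00) and 3.54-fold lower at 4 h (log2 -1.82). FOSL2 (Fra-2) had 25.5 FPKM in 2U and 20.2 in 4U, against 9.12 in 2T and 5.46 in 4T. These values did not overlap either, at 2.80-fold lower at 2 h (log2 -1.49) and 3.69-fold lower at 4 h (log2 -1.89). FOSL1 was 1.86-fold and FOSL2 1.27-fold lower in 4U than in 2U, so the later library was the lower one in both treated and untreated cells.

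Among the JUN family, JUN, the main partner of FOS proteins, had 13.4 FPKM in 2U and 20.2 in 4U, against 2.93 in 2T and 3.72 in 4T. Both treated libraries were low, and the ratios at the 2 times were alike in size, 4.56-fold lower at 2 h (log2 -2.19) and 5.43-fold lower at 4 h (log2 -2.44). JUND had 16.9 FPKM in 2U and 11.4 in 4U, against 1.23 in 2T and 3.75 in 4T. Its treated values stayed below the untreated ones, at 13.8-fold lower at 2 h (log2 -3.78) and 3.03-fold lower at 4 h (log2 -1.60), the latter not past 2-fold (-0.54) once genes of like GC content were set as the reference.

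JUNB, known to oppose JUN at many promoters, was the member whose treated and untreated values overlapped, with 1.37 FPKM in 2U and 2.79 in 4U, against 0.460 in 2T and 1.62 in 4T. It was 2.98-fold lower at 2 h (log2 -1.57) and 1.72-fold lower at 4 h (log2 -0.79), so it was the 1 member not called at 4 h. With 1 FPKM added the 2 h ratio of JUNB was not past 2-fold either (-0.70). JUNB lies within the span of HOOK2 on the opposite strand, which had 0.174 to 0.380 FPKM. JUN, JUNB and JUND have a single exon, which makes 3 of 8 members beside 1.67% of the 5334 genes with at least 1 FPKM that the annotation matched.

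ATF3, a stress-induced factor often counted as a repressor, had 2.70 FPKM in 2U and 16.0 in 4U, against 1.68 in 2T and 1.73 in 4T. The high library was 4U alone, while the treated libraries were nearly equal and just under 2U. ATF3 was 1.61-fold lower at 2 h (log2 -0.68), which made it the 1 tested member not called at 2 h, and 9.25-fold lower at 4 h (log2 -3.21). Its value was 5.94-fold higher in 4U than in 2U (log2 2.57), whereas 4T and 2T differed by a log2 of 0.04.

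**Figure D2:**
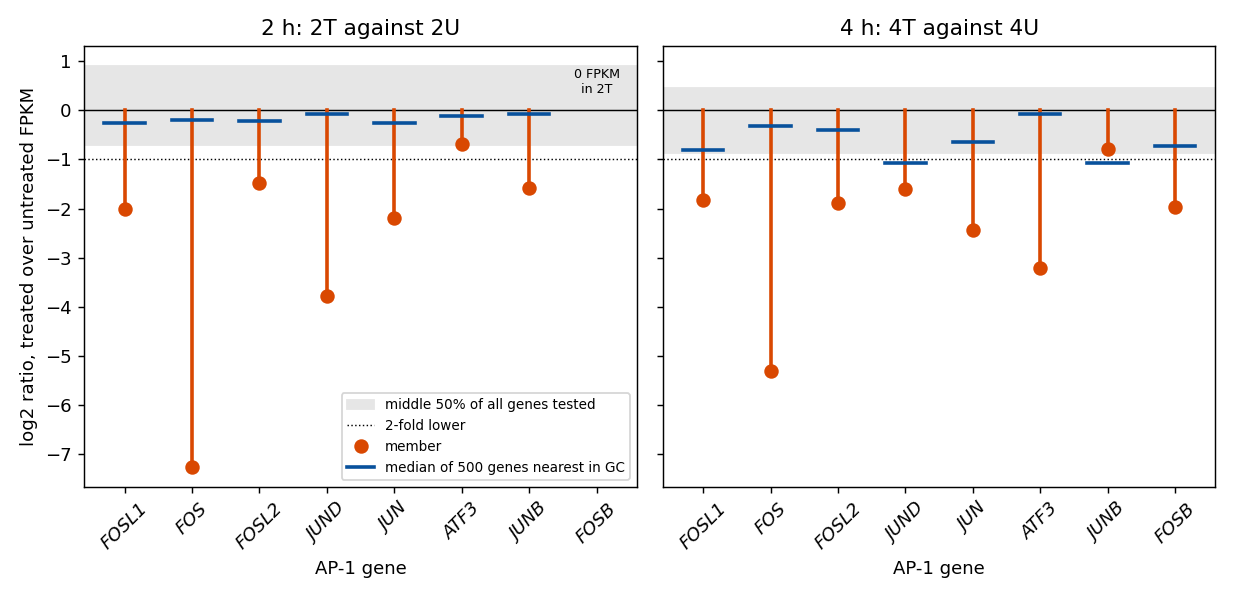
Log2 ratio of treated over untreated FPKM for each AP-1 gene at 2 h (2T over 2U) and 4 h (4T over 4U), 1 library per condition; FOSB has no value at 2 h because 2T is listed at 0. All ratios lie below 0, from -7.25 (FOS, 2 h) to -0.68 (ATF3, 2 h).

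Between the untreated libraries the members were divided. FOS (log2 0.56), JUN (0.59), JUNB (1.02) and ATF3 (2.57) were higher in 4U than in 2U, whereas FOSB (-0.41), FOSL1 (-0.89), FOSL2 (-0.34) and JUND (-0.57) were lower, 4 of 8 beside 33.1% of all genes, and with upper-quartile scaling FOS (-0.11) and JUN (-0.08) also lay below 0. JUNB and ATF3 were at least 2-fold higher, 2 of 8 beside 34.5% of 9021 genes, and 0 of 8 were at least 2-fold lower, beside 7.27%. These shares include genes between 0 and 0.2 FPKM, of which 2U listed 2656 and 4U 0. Among the 5800 genes with at least 1 FPKM in one of these libraries, 23.8% were higher and 10.4% lower. With upper-quartile scaling 4 of 8 (FOSB, FOSL1, FOSL2 and JUND) were at least 2-fold lower and ATF3 higher, beside 22.1% of all genes lower and 18.5% higher, and JUNB was not past 2-fold with that scaling (0.35) or median-ratio scaling (0.86). The members' median was 0.11, and that of all genes 0.50, or 0.19 among genes with at least 1 FPKM in one of these libraries. Between the treated libraries, FOS (2.50), JUNB (1.81) and JUND (1.61) were at least 2-fold higher in 4T than in 2T, 3 of 7 beside 16.1% of 8034 genes, and 0 of 7 were at least 2-fold lower, beside 4.27%. Upper-quartile scaling moved the share higher to 28.1% and the share lower to 1.31%. Among the 5382 genes with at least 1 FPKM in one of these libraries, 5.65% were higher and 5.78% lower, without that scaling. With 1 FPKM added only JUND (1.09) was past 2-fold, with FOS at 0.81 and JUNB at 0.84. FOSL1 (-0.71) and FOSL2 (-0.74) were below 0, 2 of 7 beside 44.1%, and JUN (0.34) and ATF3 (0.04) near it.

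Set against each other, the treated-over-untreated log2 ratio at 4 h was higher than at 2 h by 1.94 for FOS, 2.18 for JUND, 0.79 for JUNB and 0.18 for FOSL1. It was lower by a log2 of 0.40 for FOSL2, 0.25 for JUN and 2.52 for ATF3. With upper-quartile scaling FOSL2 (0.73) and JUN (0.88) turned to above 0, JUN also with median-ratio scaling (0.050) and the GC correction described later (0.15), and with 1 FPKM added FOS was at 0.27 and JUNB at 0.17. These comparisons share libraries (4U stands in both 4T over 4U and 4U over 2U), so their values for a gene are not independent. None of these differences was tested, since each rests on 4 single libraries.

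**Figure D3:**
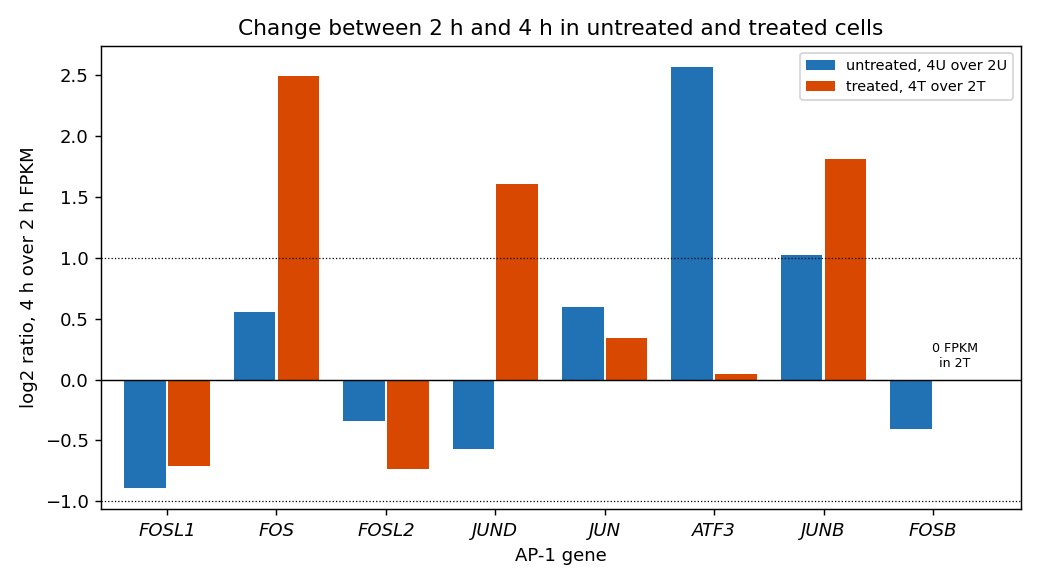
Log2 ratio of 4 h over 2 h FPKM for each AP-1 gene in untreated (4U over 2U) and treated (4T over 2T) cells, 1 library per condition. ATF3 stands out among the untreated ratios at 2.57, and FOS among the treated ones at 2.50, from a 2T value of only 0.193 FPKM.

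FOSL1 made up nearly the whole FOS family by FPKM, with shares of 97.4, 98.3, 94.7 and 97.9% of family sums of 2191, 541, 1214 and 331 FPKM. Apart from FOSL1, the other FOS genes summed to 56.6, 9.32, 64.8 and 6.88 FPKM, and FOS held 51.9, 2.07, 66.8 and 15.9% of that sum. The JUN family summed to 31.7, 4.62, 34.3 and 9.09 FPKM. JUND was its most abundant member in 2U (53.5%) and JUN in 2T (63.4%) and 4U (58.8%), while JUND (41.3%) and JUN (40.9%) were nearly level in 4T. JUNB had its smallest share in 2U (4.33%) and its largest in 4T (17.8%). FOS-family mRNA exceeded JUN-family mRNA 69.2-fold in 2U and 35.4-fold in 4U, against 117-fold in 2T and 36.5-fold in 4T. All 8 members together took 0.272% of the summed FPKM in 2U and 0.0696% in 2T.

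**Figure D4:**
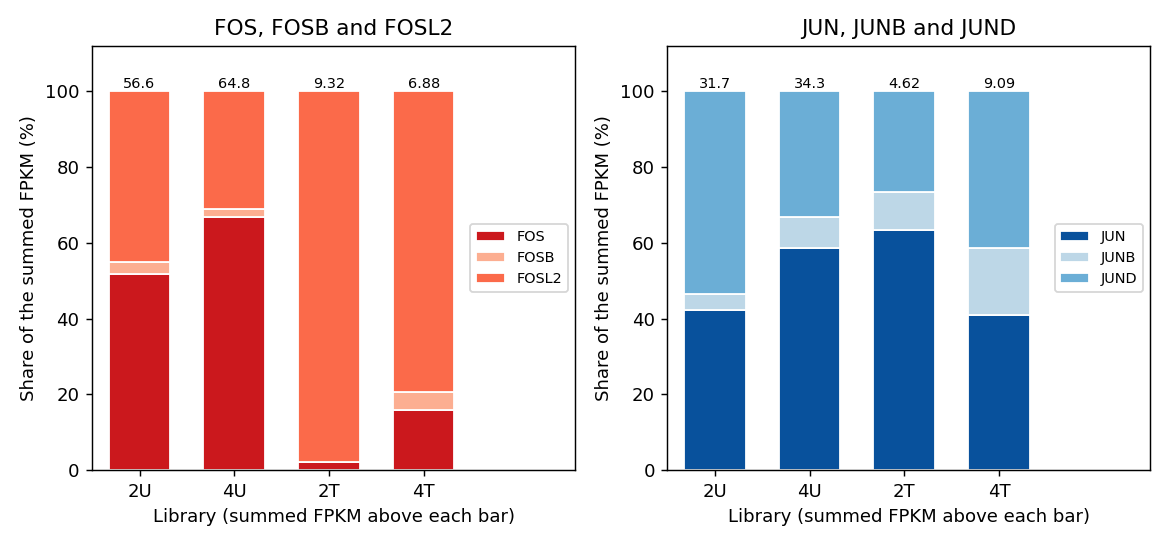
Share (%) of each gene in the summed FPKM of the FOS family without FOSL1 and of the JUN family, 1 stacked bar per library. FOS takes 51.9% and 66.8% of the former in the untreated libraries and 2.07% and 15.9% in the treated ones.

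Base composition moved with the treated-to-untreated ratio, and also with the ratio between libraries of the same treatment. From the quintile of genes with the lowest GC content to the quintile with the highest, the median log2 ratio at 4 h went from 0.60 to -0.99. The share of genes at least 2-fold lower at 4 h went from 2.41 to 49.6%. At 2 h the medians in the same order were 0.61, 0.24, -0.12, -0.26 and -0.11, with no steady fall over the upper quintiles. Between the untreated libraries (4U over 2U) they were 0.58, 0.25, 0.33, 0.52 and 0.81. Between the treated libraries (4T over 2T) they went from 0.41 in the lowest quintile to -0.29 in the highest. A trend with GC content was thus also present without a difference in treatment. The members' transcripts had 50.4% (ATF3) to 69.9% (JUND) GC, and 7 of 8 were above 52.5%, the median of the 5334 annotated genes with at least 1 FPKM, which FOS (52.8%) barely passed. After the median of the 500 genes nearest in GC was subtracted, a step chosen after seeing the data, the log2 ratios at 2 h lay between -7.05 (FOS) and -0.57 (ATF3), and 6 of 7 members were still called lower. At 4 h, 6 of 8 were called lower. FOS stood at -4.98, ATF3 at -3.12, JUN at -1.78, FOSL2 at -1.48, FOSB at -1.25 and FOSL1 at -1.02, whereas JUND (-0.54) was no longer past 2-fold and JUNB (0.28) changed sign. How far GC content bears on the values was not tested beyond this.

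**Figure D5:**
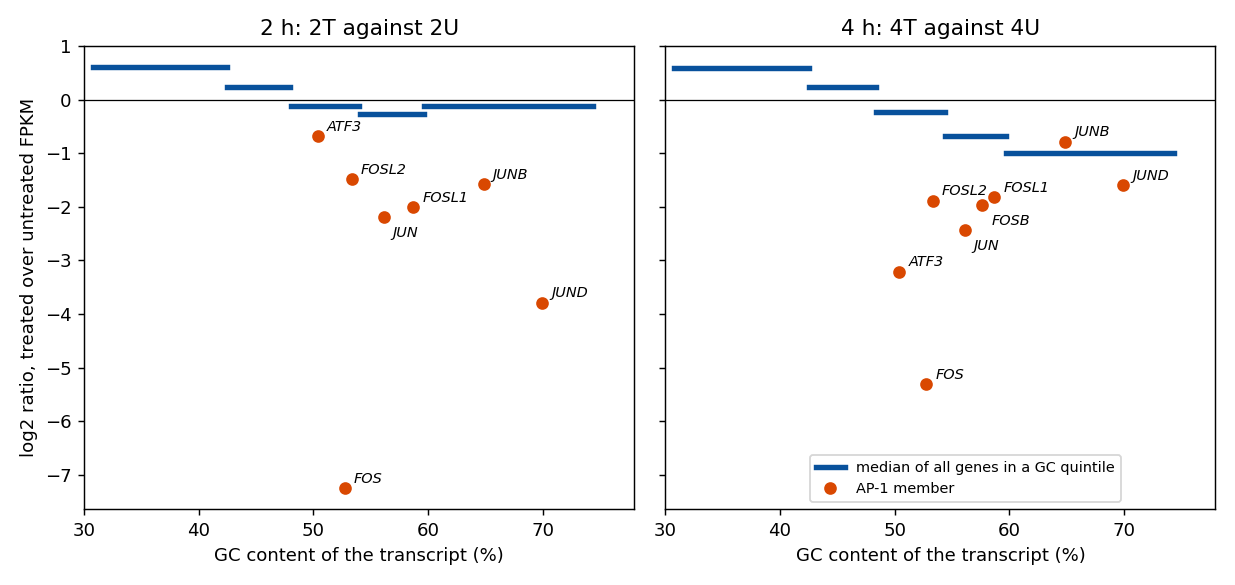
Log2 ratio of treated over untreated FPKM against the GC content (%) of the transcript at 2 h and 4 h, with the AP-1 genes named and the median of each quintile of all genes drawn. At 4 h the medians go from 0.60 to -0.99 with rising GC, and FOS, ATF3 and JUN lie well under them.

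In the annotation of GRCh37, FOS lies at chr14:75745529-75748933 (+) with 4 exons, JUN at chr1:59242517-59249720 (-), JUND at chr19:18390504-18392432 (-), FOSL1 at chr11:65659520-65668044 (-) and ATF3 at chr1:212738676-212794119 (+). All members carry AUUUA, the core of the AU-rich elements that make mRNAs short-lived, in the untranslated region after the coding part. FOSL2 has 9 copies, FOS 5, FOSB, JUN and ATF3 3 each, JUNB 2, and FOSL1 and JUND 1 each. The median of annotated genes with at least 1 FPKM in any library was also 1 copy, so carrying AUUUA is not particular to the members. At least 3 copies stood in 5 of 8 members, beside 30.7% of genes with at least 1 FPKM in any library. Per kilobase all 8 exceeded the median of 1.08, though FOSL1 (1.19), JUND (1.34) and FOSB (1.38) were not far from it.

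The genes nearest in pattern to FOS over the 4 libraries were IER2 (distance 2.54 in log2 units), CTGF (2.55) and DUSP1 (2.90) of 4075 genes with at least 1 FPKM in all 4, none of them close, and FOS itself was under 1 FPKM in 2T. IER2 had 69.5, 4.13, 114 and 4.75 FPKM in 2U, 2T, 4U and 4T. Nearest to JUN of 4074 genes were IER5 (0.32), ARRB2 (0.37) and PRCC (0.41). ATF3 had as nearest SNHG12 (0.55), DGCR8 (0.56) and ARFRP1 (0.61), and SNHG12 shared its high 4U value with 8.94, 3.46, 40.6 and 5.48 FPKM. Of 18 other immediate early genes, 7 of the 11 above 0 in both libraries were at least 2-fold lower at 2 h (18.4% of all genes) and 9 of 12 at 4 h (20.9%), with 2 (23.4%) and 0 (12.6%) higher. EGR1, a transcription factor that serum switches on as fast as FOS, had 18.6 FPKM in 2U and 39.8 in 4U, against 0 in 2T and 0.810 in 4T.

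Of 25 MAP kinase and serum response genes, 5 of the 16 above 0 in both libraries were at least 2-fold lower at 2 h and 1 higher, and 7 of 17 lower and 1 higher at 4 h, beside 18.4 and 23.4% of all genes at 2 h and 20.9 and 12.6% at 4 h. Their medians were -0.34 and -0.57, against 0.07 and -0.18 over all genes. MAP2K1, a kinase that activates ERK, had 7.83 FPKM in 2U and 4.40 in 4U, against 1.84 in 2T and 1.59 in 4T, and RPS6KA1, an ERK-activated kinase of the RSK family, had 5.21, 0.983, 3.71 and 0.544. Both were at least 2-fold lower at both times. MAP2K2, which also activates ERK, had 19.8, 13.1, 49.9 and 8.79 FPKM and was past 2-fold only at 4 h. ELK1 was the 1 gene called higher at 2 h, with 0.249, 1.69, 1.75 and 1.36 FPKM. SRF, which binds the FOS promoter, had 12.0, 4.07, 11.8 and 6.58 FPKM. Of the JUN kinase genes, MAPK8 and MAPK10 were listed at 0 in every library. MAPK9 was listed at 0 in 2U and 2T and had 0.228 FPKM in 4U and 0.252 in 4T. The paper's Western blots measured JUN kinase protein in SK-HEP-1 cells, so these listings do not show that the kinases are absent. From those blots the paper reports more phosphorylated relative to unphosphorylated JUN kinase and JUN protein with AcFBE. For ERK and FOS protein it reports no significant change of that ratio. The mRNA values given here do not measure phosphorylation.

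Among 22 other bZIP genes, which encode dimer partners or relatives of AP-1, 4 of 13 were at least 2-fold lower and 3 higher at 2 h, and 4 of 15 lower and 2 higher at 4 h, beside 18.4 and 23.4% of all genes at 2 h and 20.9 and 12.6% at 4 h. Their medians were 0.06 and -0.20, near those of all genes. DDIT3 (CHOP), a stress factor, had 116 FPKM in 2U and 50.2 in 4U, against 0 in 2T and 11.0 in 4T. BATF3, a partner of JUN proteins, had 43.9, 21.2, 33.1 and 15.5 FPKM and was at least 2-fold lower at both times. NFE2L2 (NRF2), the regulator of antioxidant genes, was higher at both times, with 0.0885, 1.40, 0.508 and 1.77 FPKM, of which the first is under the lowest value kept at 4 h.

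Of 16 genes of AP-1 mRNA and protein turnover, 4 of 8 were at least 2-fold lower and 1 higher at 2 h, and 3 of 10 lower and 3 higher at 4 h, against all-gene shares of 18.4 and 23.4% at 2 h and 20.9 and 12.6% at 4 h. Their medians were -1.16 and -0.01, where all genes had 0.07 and -0.18. COPS5 (JAB1), a JUN coactivator, was the one higher at both times, with 9.23 FPKM in 2U and 12.3 in 4U, against 52.9 in 2T and 61.7 in 4T. ZFP36L1, which binds AU-rich elements and speeds mRNA decay, had 5.46, 0.858, 3.17 and 1.08 FPKM, and ELAVL1 (HuR), which stabilizes such mRNAs, 9.73, 3.54, 8.08 and 2.71. Both of these were at least 2-fold lower at both times.

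Of 22 known AP-1 target genes, 4 of 13 were at least 2-fold lower and 1 higher at 2 h, and 2 of 14 lower and 1 higher at 4 h, counts to be read against 18.4 and 23.4% of all genes at 2 h and 20.9 and 12.6% at 4 h. Their medians were -0.29 and -0.67. PLAU, the urokinase gene, had 132 FPKM in 2U and 105 in 4U, against 25.8 in 2T and 59.9 in 4T, so it was 5.11-fold lower at 2 h and 1.75-fold lower at 4 h. SPP1 (osteopontin) was instead 5.03-fold higher at 2 h and 6.15-fold higher at 4 h, with 1.35, 6.79, 1.56 and 9.57 FPKM. The collagenase MMP1 was listed at 0 in every library, and CD44 was listed at 0 in both 2 h libraries and had 196 FPKM in 4U and 198 in 4T.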

How the data were processed

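Poly(A) RNA of SK-HEP-1 cells was sequenced by the authors as 1 library per condition (2U, 2T, 4U and 4T). The authors deposited FPKM per gene symbol in 1 table, made from reads mapped to the human genome (hg19, GRCh37) with at most 2 mismatches and a quality value of at least 20. The submitters' processing notes name TopHat and Cufflinks, and the study's methods Bowtie and Cufflinks; versions are not given in the sources used here. A column of gene notes was not used, and 12 small RNA samples were left out because they hold no mRNA.

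Groups came from the sample titles. For each pair of libraries genes above 0 in both were compared by their FPKM ratio, with no pseudocount, and a gene was called at 2-fold. With 1 library per condition no test was possible, so each count is given beside the share of all genes called. Alternatives were 1 FPKM added, a minimum of 1 FPKM in one of the libraries compared, median-ratio scaling, upper-quartile scaling and a 3-fold call. A GC correction was added after seeing the data. The script that makes the calls was tested on simulated data, which is no test of any difference given here. The members and gene lists were chosen with earlier results of these data known. Besides the members, up to 3 genes higher and 3 lower per list and comparison (past 2-fold, at least 1 FPKM in one library), and the 3 genes nearest to FOS, JUN and ATF3 by Euclidean distance of centred log2 FPKM, could be named. A few others were named after their values were seen (SRF, MAPK8, MAPK9, MAPK10, MMP1, CD44, RPL17, EEF1D, ERCC1, HOOK2 and cell type markers, and genes named for 1 time with their values at the other). Some genes that this rule names are not reported here. Transcript features came from GENCODE lifted to GRCh37, and promoters from RefSeq (GRCh38.p14), matched by symbol for 7 of 8 members. Python 3.11.15, numpy 2.4.6, pandas 2.3.3 and matplotlib 3.10.9 were used.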

Additional observations from a re-analysis of the deposited data

Results flagged for a closer look

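Results are given here for members whose ratios had opposite signs in 2 pairs of libraries, whatever their size, and for genes of the other lists that were past 2-fold in opposite directions at 2 h and 4 h. JUND was lower at 4 h than at 2 h in untreated cells (log2 -0.57) and higher in treated cells (1.61), a difference of 2.18. CEBPG, a bZIP partner gene, was lower with AcFBE at 2 h (log2 -1.22) and higher at 4 h (1.36), a difference of 2.58. Its values were low, at 2.46, 1.05, 0.698 and 1.79 FPKM, and 4U was below 2U (log2 -1.82). CNOT7, which encodes a subunit of the deadenylase that shortens mRNA tails, was lower at 2 h (log2 -1.83) and higher at 4 h (1.23), a difference of 3.05. It too was low, at 3.65, 1.03, 0.978 and 2.29 FPKM, with 4U below 2U (log2 -1.90). Ratios of such low values shrink when 1 FPKM is added. These differences were not tested, since each condition had 1 library.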

How the results depend on the processing

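No paired analysis was possible because each condition had 1 mRNA library, and for the same reason no library could be left out. The treated-over-untreated medians of the members kept their direction under every alternative run, their counts stayed within 1.5 times, and the 2 h median log2 ratio moved most, from -2.00 to -2.77 with upper-quartile scaling. The count moved most at the 3-fold call, where 4 of 7 members were lower at 2 h instead of 6, beside 8.69% of all genes. FOSL2 and JUNB were the members lost. At 4 h the 3-fold call kept 7 of 8, beside 7.88% of all genes. JUNB at 2 h was not past 2-fold with 1 FPKM added (-0.70), where FOSB entered the count in its place, and no ratio past 2-fold changed sign. The log2 ratio of JUNB at 4 h, which was not past 2-fold, became 0.28 after the GC correction.

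Between the untreated libraries the count of members at least 2-fold higher went from 2 to 1 with 1 FPKM added, with either scaling, at the 3-fold call and after the GC correction. The count at least 2-fold lower went from 0 to 1 with median-ratio scaling, 4 with upper-quartile scaling and 2 after the GC correction, and the median from 0.11 to -0.056, -0.56 and -0.37 in the same order. Between the treated libraries the count higher went from 3 to 1 with 1 FPKM added.

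For the log2 ratio at 4 h minus that at 2 h, FOS became 0.27 and JUNB 0.17 with 1 FPKM added. With upper-quartile scaling FOSL1 became 1.31, FOSL2 0.73, JUN 0.88, JUNB 1.92 and ATF3 -1.39. With median-ratio scaling JUN became 0.050 and JUNB 1.09, and after the GC correction JUN became 0.15 and JUNB 1.78. The cause was not tested, except that a scaling moves all genes of a library alike and an added FPKM shrinks the ratios of low genes.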
